A study of Mus musculus with 10 samples.

Results

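The Cyp2a and Cyp2b subfamilies of cytochrome P450 were followed in livers of mice bearing pancreatic tumours. The members were the rows of the deposited table whose gene symbol is Cyp2a4, Cyp2a5, Cyp2a12, Cyp2a22, Cyp2b9, Cyp2b10 or Cyp2b13, which makes 7 of 24972 genes, and all 7 passed the filter on low values that left 11110 genes for the comparison. They were chosen with the difference between the groups already known. Their values in that comparison are therefore a description, given without a test.

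Liver RNA came from mice of WT genotype that carried tumours of clonal lines derived from the KPC model of pancreatic ductal adenocarcinoma. The 4 T cell-low libraries came from mice with line 6419c1, and line 6555c3 was carried by the mice of the 6 T cell-high libraries, so tumour line and T cell class cannot be told apart. The labels give no age, sex or time after implantation, and no liver without a tumour is analysed here. The labels also do not say whether each library is its own mouse, so p-values reflect only how far these libraries spread, in part perhaps for technical reasons. In bulk liver, fewer cells of a type and less RNA per cell cannot be told apart either.

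Cytochrome P450 enzymes of these subfamilies sit in the endoplasmic reticulum of hepatocytes and oxidise steroids, drugs and other foreign compounds, taking electrons from the reductase Por. Cyp2b10 is the textbook target of the xenobiotic receptor CAR (Nr1i3) and can also be driven by its relative PXR (Nr1i2), while Cyp2b9, Cyp2b13 and Cyp2a4 are known as female-predominant genes whose sex difference depends on the growth hormone pulse and STAT5. Cyp2a5 hydroxylates coumarin and nicotine, Cyp2a4 hydroxylates testosterone, and Cyp2a12 acts on steroids and bile acids.

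The 7 genes lie in 1 cluster on mouse chromosome 7 that spans 1140 kb from the first base of Cyp2b10 to the last of Cyp2a12. In GENCODE vM21 on the assembly named mm10, Cyp2b10 (chr7:25897620-25926624), Cyp2b13 (chr7:26061497-26096197), Cyp2b9 (chr7:26173411-26210661), Cyp2a4 (chr7:26307169-26315088), Cyp2a5 (chr7:26835305-26843548) and Cyp2a12 (chr7:27029081-27037375) are on the plus strand. Cyp2a22 (chr7:26931631-26939384) is on the minus strand. The longest gene model has 10 exons for Cyp2b10 and 9 for each of the others.

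Several members are recent copies of each other. Coding sequences were identical at 98.4% of aligned bases for Cyp2a4 and Cyp2a5 (23 mismatches in 1482 bases), at 97.0% for Cyp2a12 and Cyp2a22 (45 in 1476), at 92.7% for Cyp2b9 and Cyp2b13 (107 in 1473) and at 88.7% for Cyp2b10 and Cyp2b13. In a 3′ end assay the copies matter only where the transcript ends are alike. The final 400 bases of annotated transcripts were cut into 50-base words, of which 33.3% for Cyp2a4 and 44.4% for Cyp2a5 occurred in another gene, mostly in the other of the pair, so the split of reads between these genes is uncertain. The share was 17.5% for Cyp2b10 and 7.12% for both Cyp2a12 and Cyp2a22, and no word of the Cyp2b9 or Cyp2b13 ends was found in another gene. These shares depend on the word: with 30-base words they were 55.8% for Cyp2a4, 29.9% for Cyp2b10, 18.2% for Cyp2a12 and 18.7% for Cyp2a22, and with 75-base words 17.8% for Cyp2a4, 30.9% for Cyp2a5, 4.6% for Cyp2b10 and 0.15% for Cyp2a12 and Cyp2a22. Over the last 200 bases the share was 22.1% for Cyp2b10 and 0 for Cyp2a12 and Cyp2a22, and over the last 600 bases 16.7% for Cyp2a12, 13.7% for Cyp2a22, 8.17% for Cyp2b13 and 2.0% for Cyp2b9.

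The stretch before the gene start is shown for 5 members, because it contrasts the pair whose values moved together (Cyp2b9 and Cyp2b13) with Cyp2b10, which did not follow them, and with Cyp2a12 and Cyp2a22, near copies that differed most. The sequences are the 250 bases before the RefSeq gene start on GRCm38.p6, written 5′ to 3′ on the strand of the gene, at chr7:26173159-26173408 (plus) for Cyp2b9, chr7:26061245-26061494 (plus) for Cyp2b13, chr7:25897408-25897657 (plus) for Cyp2b10, chr7:27028840-27029089 (plus) for Cyp2a12 and chr7:26939387-26939636 (minus) for Cyp2a22. RefSeq and GENCODE starts differ: the Cyp2b10 and Cyp2a12 stretches end inside the GENCODE gene models given above, which begin at 25897620 and 27029081. Capitals mark every match, on either strand, to the motifs named after the sequences.
Cyp2b9: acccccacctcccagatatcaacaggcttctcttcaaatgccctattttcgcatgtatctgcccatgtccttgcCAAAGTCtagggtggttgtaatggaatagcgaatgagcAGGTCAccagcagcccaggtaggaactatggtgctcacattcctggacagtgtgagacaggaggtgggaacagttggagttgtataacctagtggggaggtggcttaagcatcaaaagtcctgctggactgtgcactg
Cyp2b13: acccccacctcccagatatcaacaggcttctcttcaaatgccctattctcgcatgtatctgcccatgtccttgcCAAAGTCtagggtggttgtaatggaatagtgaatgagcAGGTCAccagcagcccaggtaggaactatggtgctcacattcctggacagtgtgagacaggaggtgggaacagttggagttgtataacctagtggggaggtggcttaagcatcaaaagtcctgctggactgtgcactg
Cyp2b10: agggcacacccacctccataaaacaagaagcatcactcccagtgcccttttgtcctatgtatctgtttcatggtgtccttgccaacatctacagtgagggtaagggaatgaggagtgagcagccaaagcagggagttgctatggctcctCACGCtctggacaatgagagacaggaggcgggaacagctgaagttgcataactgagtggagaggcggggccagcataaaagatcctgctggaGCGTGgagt
Cyp2a12: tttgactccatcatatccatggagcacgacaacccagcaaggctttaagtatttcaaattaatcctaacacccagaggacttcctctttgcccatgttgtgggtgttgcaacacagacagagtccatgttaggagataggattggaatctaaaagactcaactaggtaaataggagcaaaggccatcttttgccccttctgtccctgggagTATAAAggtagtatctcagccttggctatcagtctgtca
Cyp2a22: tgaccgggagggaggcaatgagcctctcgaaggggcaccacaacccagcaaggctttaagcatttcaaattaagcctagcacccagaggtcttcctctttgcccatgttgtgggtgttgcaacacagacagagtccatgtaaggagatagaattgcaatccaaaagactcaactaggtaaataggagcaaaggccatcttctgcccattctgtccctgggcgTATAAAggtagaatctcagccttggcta

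The Cyp2b9 and Cyp2b13 stretches were identical at 248 of 250 bases (99.2%), and both had the nuclear receptor core AGGTCA starting 138 bases and the HNF4 core CAAAGTC 176 bases before the start. The Cyp2b10 stretch was identical to each of them at 68.1% of alignment columns. The only motif found in it was GCGTG, the core bound by the Ah receptor, at 101 bases (on the minus strand) and 9 bases before the start. The match at 9 bases lies before the RefSeq start but inside the GENCODE gene model. Cyp2a12 and Cyp2a22 were identical at 216 of 261 alignment columns (82.8%), of which 239 held a base of both. Their TATAAA, the TATA box, lay 39 and 28 bases before the start. Gaps count as differences in these promoter shares, unlike in the coding sequences, so a shift between 2 gene starts lowers them. Cyp2a4 and Cyp2a5, not printed, were identical at 97.6% and both held CAAAGTC and TATAAA before the start and AGGTCA on the minus strand after it.

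The search covered 250 bases before to 50 after the start, on both strands, for 9 motifs. Of all 32851 RefSeq promoters, 16.3% held AGGTCA, 4.44% held CAAAGTC, 13.6% held TATAAA and 32.4% held GCGTG. No match in a member overlapped a match to another motif. The nuclear receptor core and the HNF4 core each occurred in 4 of the 7 members, Cyp2a4, Cyp2a5, Cyp2b9 and Cyp2b13. The TATA box occurred in the 4 Cyp2a genes and the Ah receptor core in 1 member. In each case the 4 genes are pairs of near copies. Their matches are not independent, so nothing is read from these counts beside the shares of all promoters. The other motifs, TTCNNNGAA (STAT, 8.3% of promoters), TTNNGNAAT (C/EBP, 11.5%), CACGTG (E-box, 7.15%), TGACNNNGC (antioxidant response, 12.4%) and the glucocorticoid response element (0.00913%), matched no member in this window. These are matches of letters and say nothing of binding.

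Before the values, the libraries themselves need a description. Scaled totals ran from 7000659 to 8257373. Hepatocyte markers were high throughout, with albumin (Alb) between 68423 and 295529 scaled counts, and Xist was between 866 and 2097 in the 10 libraries. T cell-high 1, 3, 5 and 6 stood apart from every other library. The haemoglobin gene Hbb-bs (56.7% of its 3′ end words shared) had 3465 to 9359 scaled counts there against 16.2 to 215 elsewhere. Hba-a2, another haemoglobin gene (83.2% of its 3′ end words shared), did not follow it, with 15331 to 32670 there and 25604 to 93823 elsewhere. The histocompatibility gene H2-L was listed at 0 there against 307 to 1477 elsewhere. Differences of the members and of the other genes named from the lists are therefore also given without these 4 libraries, which leaves 4 T cell-low against 2 T cell-high. T cell-low 1 also lay nearer to the T cell-high libraries than the others of its group: relative to the mean log2 level in T cell-high, the median of the 7 members was -1.08, -2.79, -2.01 and -3.41 in T cell-low 1, 2, 3 and 4, and between -0.44 and 0.30 in the T cell-high libraries.

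Cyp2a22, Cyp2a4, Cyp2b13, Cyp2b9 and Cyp2a5 had lower values in every T cell-low library than in any T cell-high library, by 4.25-fold to 19.5-fold on the log scale, while Cyp2a12 was 1.51-fold lower and Cyp2b10 1.24-fold higher, both with overlapping groups. Of the 11110 genes, 12.8% were called at an adjusted p below 0.05 (limma, Benjamini-Hochberg), 7.39% lower and 5.39% higher in T cell-low, and in 4.02% every T cell-low library was below every T cell-high library (in 3.37% above). A log2 difference of -2 or lower was reached by 2.55% of genes. The 5 members without overlap were also the 5 among the genes called lower, and since the members were chosen on this contrast nothing is read from that count. The median log2 difference was -2.40 over the 7 members and 0.00319 over all genes tested.

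**Figure D1:**
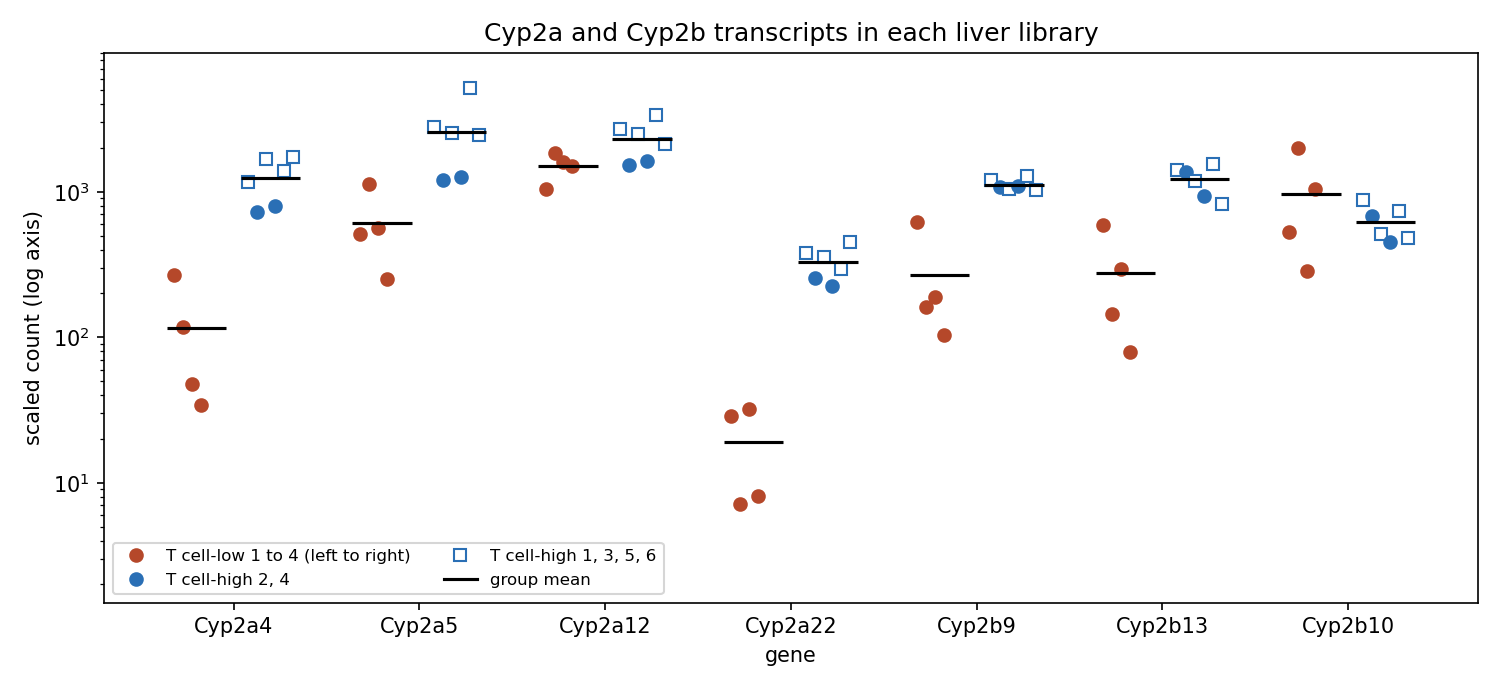
Scaled counts (log axis) of the 7 genes in each liver library, T cell-low 1 to 4 on the left of each gene and T cell-high 1 to 6 on the right, with group means as bars and T cell-high 1, 3, 5 and 6 as open squares. For Cyp2a22 the T cell-low libraries lie at 7.1 to 31.9 and the T cell-high libraries at 226 to 453, whereas the groups of Cyp2b10 and Cyp2a12 overlap.

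Among the steroid and drug hydroxylases of the Cyp2a subfamily, Cyp2a4 had 267, 117, 48.0 and 34.1 scaled counts in T cell-low 1 to 4 and 1166, 721, 1690, 804, 1390 and 1737 in T cell-high 1 to 6. The lowest T cell-high library was thus well above the highest T cell-low library, which was T cell-low 1. The means were 117 ± 107 (SD, n = 4) and 1251 ± 433 (SD, n = 6), a log2 difference of -3.79 (SE 0.48), and -3.15 (SE 0.71) without T cell-high 1, 3, 5 and 6. Its difference ranked 32 from the lowest among the 11110 genes.

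Cyp2a5, the coumarin hydroxylase, had 514, 1129, 565 and 250 scaled counts in T cell-low 1 to 4 and 2797, 1209, 2550, 1258, 5181 and 2472 in T cell-high 1 to 6. The groups did not overlap, but only just, since T cell-low 2 (1129) nearly reached T cell-high 2 (1209). The means were 614 ± 370 (SD, n = 4) and 2578 ± 1446 (SD, n = 6), with a log2 difference of -2.09 (SE 0.44). Without T cell-high 1, 3, 5 and 6 it was -1.20 (SE 0.51), a smaller difference: these libraries averaged 3250 scaled counts against 1233 in T cell-high 2 and 4.

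Since reads of Cyp2a4 and Cyp2a5 may be split between the copies, their sum was also taken. It was 781, 1246, 613 and 284 scaled counts in T cell-low 1 to 4 and ranged from 1931 to 6571 in the T cell-high libraries, with no overlap and a log2 difference of -2.45 (SE 0.49). The ratio of the pair also differed: the log2 ratio of Cyp2a4 to Cyp2a5 was -0.94, -3.26, -3.53 and -2.83 in T cell-low 1 to 4 and between -1.90 and -0.51 in the T cell-high libraries. T cell-low 1 lay inside the T cell-high range and the other T cell-low libraries below it. What part a split of reads has in this ratio was not tested.

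Cyp2a12, which acts on steroids and bile acids, had 1047, 1856, 1596 and 1506 scaled counts in T cell-low 1 to 4 and 2687, 1533, 2480, 1638, 3349 and 2124 in T cell-high 1 to 6. T cell-high 2 and 4 lay among the T cell-low libraries. The log2 difference was -0.59 (SE 0.25), and -0.11 (SE 0.31) without T cell-high 1, 3, 5 and 6.

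Cyp2a22, the near copy of Cyp2a12, had 28.8, 7.1, 31.9 and 8.1 scaled counts in T cell-low 1 to 4 and 377, 257, 354, 226, 295 and 453 in T cell-high 1 to 6. All T cell-low libraries were far below the lowest T cell-high library, and T cell-low 2 and 4 were the lowest. The T cell-low mean of 19.0 ± 13.2 (SD, n = 4) was 5.81% of the T cell-high mean of 327 ± 83.9 (SD, n = 6). The log2 difference of -4.28 (SE 0.41) was the lowest of the 7 members, ranked 21 from the lowest of all genes, and was -3.88 (SE 0.66) without T cell-high 1, 3, 5 and 6.

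Cyp2a22 and Cyp2a12 differed more from each other than any other pair within a subfamily. The log2 ratio of Cyp2a22 to Cyp2a12 was between -7.84 and -5.14 in the T cell-low libraries and between -3.50 and -2.23 in the T cell-high libraries, a difference of -3.69 (SE 0.56). Within the T cell-high group, T cell-high 2 and 4 had the lowest values of all 4 Cyp2a genes. The mean of T cell-high 1, 3, 5 and 6 was 1.96 times that of T cell-high 2 and 4 for Cyp2a4, 2.63 times for Cyp2a5, 1.68 times for Cyp2a12 and 1.53 times for Cyp2a22. The same ratio was 1.04 for Cyp2b9, 1.08 for Cyp2b13 and 1.15 for Cyp2b10. The hepatocyte factor Hnf4a was also lowest in T cell-high 2 and 4 within that group (567 and 702 scaled counts against 1179 to 1771), and its part in the Cyp2a values was not tested.

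In the Cyp2b subfamily, the female-predominant Cyp2b9 had 619, 161, 190 and 104 scaled counts in T cell-low 1 to 4 and 1200, 1083, 1045, 1095, 1284 and 1022 in T cell-high 1 to 6. The T cell-high libraries were close together, with a coefficient of variation of 8.96% against 88.1% in the T cell-low libraries, where T cell-low 1 stood above the rest. The means were 268 ± 236 (SD, n = 4) and 1122 (n = 6, where the values lay between 1022 and 1284). The log2 difference was -2.40 (SE 0.37), -2.92 (SE 0.21) without T cell-low 1, and -2.36 (SE 0.60) without T cell-high 1, 3, 5 and 6.

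Cyp2b13, also female-predominant, had 591, 144, 293 and 78.8 scaled counts in T cell-low 1 to 4 and 1418, 1378, 1180, 937, 1559 and 822 in T cell-high 1 to 6. Again T cell-low 1 was the highest and T cell-low 4 the lowest of the T cell-low libraries, with no overlap. The means were 277 ± 228 (SD, n = 4) and 1216 ± 290 (SD, n = 6), with a log2 difference of -2.49 (SE 0.44), and -2.42 (SE 0.68) without T cell-high 1, 3, 5 and 6. The log2 ratio of Cyp2b13 to Cyp2b9 stayed between -0.40 and 0.62 in all 10 libraries and differed between the groups by -0.08 (SE 0.23).

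Cyp2b10, the CAR target, had 529, 2003, 285 and 1046 scaled counts in T cell-low 1 to 4 and 872, 678, 511, 452, 743 and 481 in T cell-high 1 to 6. T cell-low 2 and 4 were above every T cell-high library, T cell-low 3 was below every one, and T cell-low 1 lay among them. The means were 965 ± 761 (SD, n = 4) and 623 ± 168 (SD, n = 6), with a log2 difference of 0.31 (SE 0.43) that turned to -0.16 when T cell-low 2 was left out and was 0.44 (SE 0.66) without T cell-high 1, 3, 5 and 6. The coefficient of variation was 78.8% among the T cell-low libraries, against 27.0% for T cell-high.

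Cyp2b10 and Cyp2b9 thus parted within the T cell-low group. The log2 ratio of Cyp2b10 to Cyp2b9 was -0.23, 3.63, 0.59 and 3.31 in T cell-low 1 to 4 and between -1.28 and -0.46 in the T cell-high libraries, with no overlap. The 3 Cyp2b genes together had 1739, 2307, 767 and 1229 scaled counts in T cell-low 1 to 4 and 2326 to 3586 in the T cell-high libraries, a log2 difference of -1.07 (SE 0.30), smaller in size than that of Cyp2b9 or Cyp2b13 alone.

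**Figure D2:**
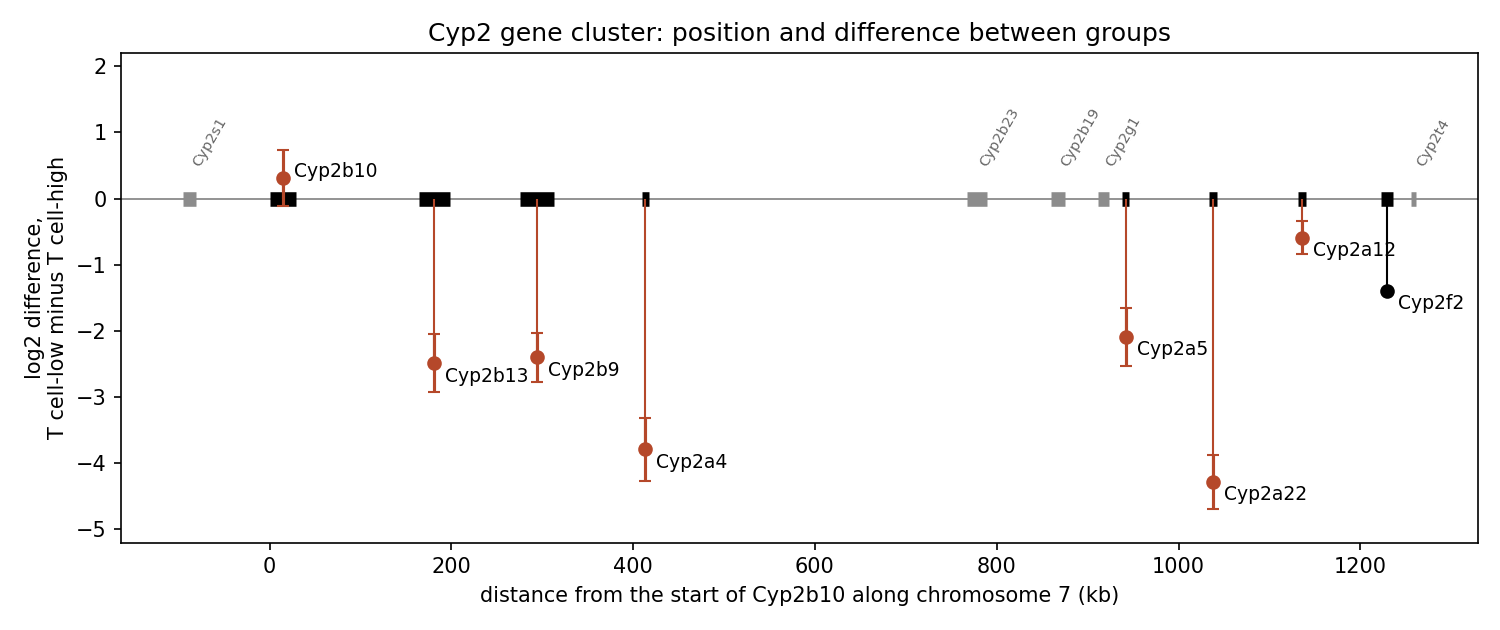
Log2 difference, T cell-low minus T cell-high, of the Cyp2 genes against their distance in kb from the start of Cyp2b10 on chromosome 7; bars on the axis are gene bodies, error lines on the 7 members are the SE, and grey genes were below the filter on low values. The difference does not follow the order along the chromosome: Cyp2a22 (-4.28) lies between Cyp2a5 (-2.09) and Cyp2a12 (-0.59).

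Other P450 genes lie between and beside the members. Of the 6 other genes of the cluster, Cyp2f2, a P450 of lung and periportal liver, was the only one tested and fell, from 3980 ± 986 (SD, n = 6) in T cell-high to 1511 ± 394 (SD, n = 4) in T cell-low (log2 difference -1.39, SE 0.25, adjusted p = 0.012 by limma). That call was kept when any 1 library was left out, and the difference was -0.91 without T cell-high 1, 3, 5 and 6. Cyp2g1, next to Cyp2a5, was below the filter with at most 3.42 scaled counts in any T cell-low library and at least 6.78 in each of the T cell-high libraries. Cyp2s1 and Cyp2t4 reached at most 17.0 and 12.6, and Cyp2b19 and Cyp2b23 were listed at 0 in all 10 libraries.

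**Figure D3:**
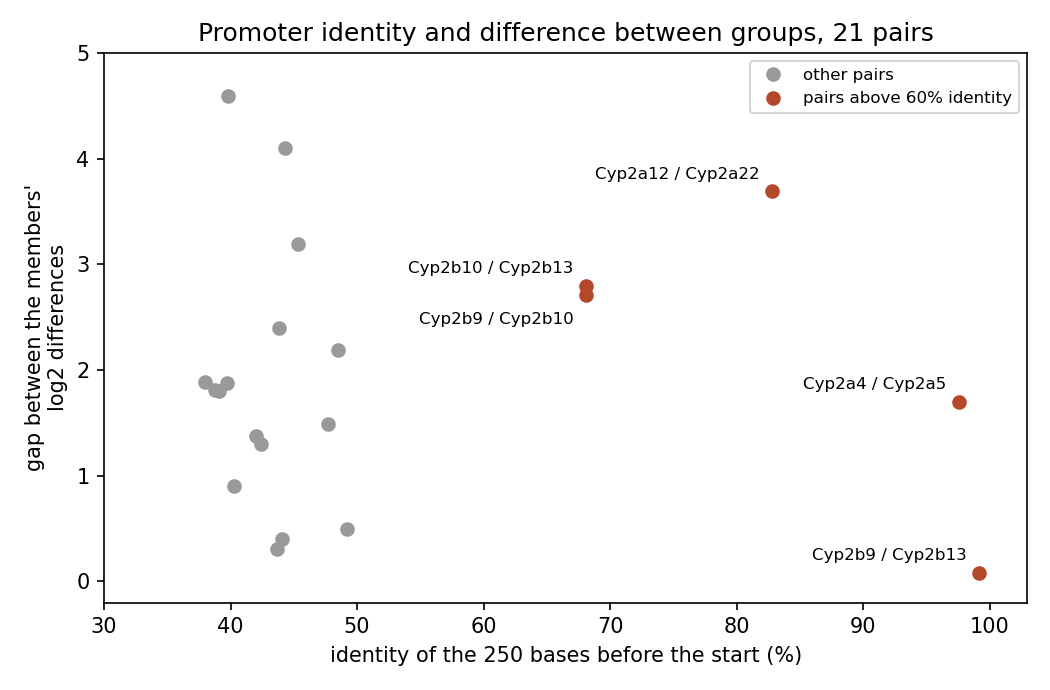
Gap between the log2 differences of 2 members against the identity of the 250 bases before their starts, for the 21 pairs of the 7 genes. Identity is a share of alignment columns, gaps included. Cyp2b9 and Cyp2b13 sit at 99.2% and a gap of 0.08, and Cyp2a4 and Cyp2a5 at 97.6% and 1.70. Cyp2a12 and Cyp2a22 sit at 82.8% and 3.69, and Cyp2b10 with Cyp2b9 or Cyp2b13 at 68.1% and 2.71 or 2.8. Among the other pairs, at 38.0% to 49.2%, gaps ran from 0.31 (Cyp2a5 and Cyp2b9) to 4.59 (Cyp2a22 and Cyp2b10). Pairs share members, so the points are not independent.

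How the members varied together was described by Pearson correlations of log2(scaled count + 1) over the 10 libraries, which share the groups and the scaling. Cyp2b9 and Cyp2b13 had r = 0.98, Cyp2a4 and Cyp2b9 0.95, and Cyp2a22 0.93 with each of Cyp2b9 and Cyp2b13. After the group means were taken off, r was 0.91 for Cyp2b9 with Cyp2b13, 0.76 for Cyp2a4 with Cyp2b9, 0.76 for Cyp2a5 with Cyp2a12 and 0.55 for the copies Cyp2a4 and Cyp2a5. Cyp2a12 and its copy Cyp2a22 had -0.13. Cyp2b10 ran against Cyp2a22 (-0.78) and, less so, Cyp2b13 (-0.43) and Cyp2b9 (-0.33).

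The genes most like each member over the 10 libraries, among 7738 compared, were Ddc (r = 0.988), Fads2 (0.987) and Aqp8 (0.987) for Cyp2b9 and Rtn4 (0.987), Gstm3 (0.983) and Entpd5 (0.982) for Cyp2b13. For Cyp2a4 they were Gpx1 (0.980), Rdh16 (0.977) and Retsat (0.974), and for Cyp2a5 Lifr (0.959), Mettl7a1 (0.949) and Hacl1 (0.948). Cyp2a22 was closest to Gamt (0.971), Cyp2c40 (0.966) and 9030619P08Rik (0.965). Cyp2a12 was closest to Tedc2 (0.961), Slc10a1 (0.946) and Mapkapk5 (0.935), and Cyp2b10 to Tmem115 (0.965), Rapgef4 (0.917) and Kbtbd2 (0.906).

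The receptors and partners of Cyp2b10 were then read library by library. The receptor PXR (Nr1i2) had 689, 1562, 659 and 1476 scaled counts in T cell-low 1 to 4 and 753 to 1180 in T cell-high, so that T cell-low 2 and 4 were again the highest. Por, the electron donor of P450 enzymes, had 2100, 13091, 4477 and 14094 in T cell-low 1 to 4 against 2075 to 3581, and Gadd45b, a stress gene that is also induced through CAR, had 25.7, 398, 43.9 and 631 against 16.4 to 54.5. The coactivator Ppargc1a had 106, 1257, 234 and 1638 against 121 to 305. All 4 genes were thus highest in the same pair of T cell-low libraries as Cyp2b10. They were added after their values were seen, so this likeness was selected for. The listed CAR and PXR targets Cyp3a11 and Cyp2c29 were not highest there. In T cell-low 1 to 4, Cyp3a11 had 4894, 4802, 4287 and 2016 scaled counts and Cyp2c29 had 4031, 1606, 4467 and 947.

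Nr1i2, Por, Gadd45b and Ppargc1a did not pass the test between the groups. The log2 difference was 0.15 for Nr1i2 (adjusted p = 0.711 by limma), 1.16 for Por (adjusted p = 0.0952) and 2.03 for Gadd45b (adjusted p = 0.0872). CAR itself (Nr1i3) had 491, 1068, 856 and 836 scaled counts in T cell-low 1 to 4 and 448 to 748 in T cell-high, a log2 difference of 0.40 (adjusted p = 0.25 by limma). Over the deviations from the group means (n = 10), Cyp2b10 had r = 0.87 with Nr1i2, 0.75 with Ppargc1a, 0.69 with Gadd45b and 0.66 with Por, but 0.19 with Nr1i3. With the other genes compared in this way, Cyp2b10 had 0.63 for Hnf4a, 0.28 for Cyp2e1, 0.03 for Cyp3a11 and -0.59 for Cyp2c29. Cyp2b9 had -0.85 with Por and -0.81 with Gadd45b, and Cyp2b13 -0.85 and -0.86.

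**Figure D4:**
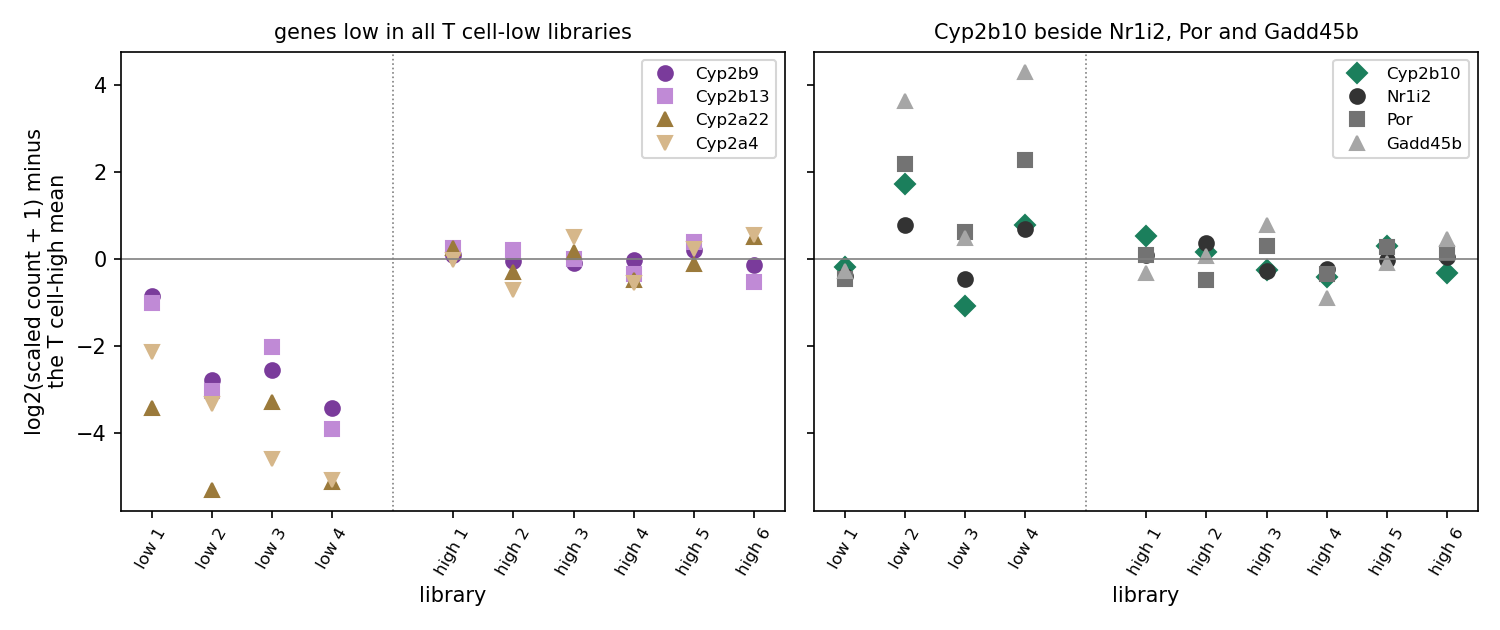
Log2(scaled count + 1) minus the T cell-high mean in each library for Cyp2b9, Cyp2b13, Cyp2a22 and Cyp2a4 (left) and for Cyp2b10 with Nr1i2, Por and Gadd45b (right). Cyp2b10, Nr1i2, Por and Gadd45b are highest in T cell-low 2 and 4, where Cyp2a22 is lowest (7.1 and 8.1 scaled counts).

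Around the members, 24 regulators of P450 genes (xenobiotic receptors, their partners and hepatocyte factors) were examined. Of these 1 fell, 3 rose and 20 did not pass, with a median log2 difference of 0.15. Over all genes tested the share called was 12.8%, so little is read from this count. Nr0b2, a corepressor of nuclear receptors, fell (-2.96, SE 0.78, adjusted p = 0.0326 by limma), and Onecut1 (1.41, SE 0.29, adjusted p = 0.0169, with a 3′ end shared with another gene), the antioxidant factor Nfe2l2 (1.09, SE 0.23, adjusted p = 0.0191) and the forkhead factor Foxa3 (1.42, SE 0.42, adjusted p = 0.0449) rose. The count ranged from 0 without T cell-low 2 or without T cell-low 4 (limma; 7 genes at an unadjusted p below 0.05 in each case) to 8 without T cell-low 1. Leaving out T cell-high 1, 3, 5 and 6 brought the differences to -1.54 for Nr0b2, 0.94 for Onecut1, 0.74 for Nfe2l2 and 0.82 for Foxa3. Hnf4a differed by -0.30 (adjusted p = 0.59) and Rxra, the partner of CAR and PXR, by -0.01.

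Of 32 tested genes among 35 listed CAR and PXR targets outside the Cyp2a and Cyp2b genes, 15 fell and 1 rose, with a median of -0.86. The carboxylesterase Ces2a (-1.10, SE 0.17, adjusted p = 0.00843 by limma), the glutathione transferases Gstt1 (-2.07, SE 0.33, adjusted p = 0.00876) and Gstm3 (-3.37, SE 0.55, adjusted p = 0.00916) and the retinaldehyde dehydrogenase Aldh1a1 (-3.00, SE 0.49, adjusted p = 0.00876) fell, and their calls were kept without any 1 library. The gene that rose was the oestrogen sulfotransferase Sult1e1 (5.81, SE 1.60, adjusted p = 0.0375), which was named after its values were seen. It had 0.862 scaled counts in T cell-low 1, 632 to 1050 in the other T cell-low libraries and at most 42.2 in T cell-high. Sult1e1 passed the filter on low values only through T cell-low, so its rise was partly set by the filter. With T cell-high 1, 3, 5 and 6 left out, Ces2a was at -1.02, Gstt1 at -1.79, Gstm3 at -2.99, Aldh1a1 at -2.61 and Sult1e1 at 5.83. Cyp3a11, the textbook PXR target, differed by -0.39 (adjusted p = 0.352). The count of 16 ranged from 5 (T cell-low 2 left out) to 21 (T cell-low 1 left out).

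Among 17 genes of electron supply and haem synthesis, on which P450 activity depends, 4 fell and 1 rose, with a median of -0.74. The reductase Cyb5r3 (-1.28, SE 0.24, adjusted p = 0.0137 by limma), cytochrome b5 type B (Cyb5b, -2.12, SE 0.47, adjusted p = 0.0204) and the haem synthesis enzyme Cpox (-2.18, SE 0.60, adjusted p = 0.0378) fell, and the haem oxygenase Hmox1 rose (1.25, SE 0.35, adjusted p = 0.0396). When T cell-high 1, 3, 5 and 6 were dropped, Cpox was at -0.89 and Hmox1 at 0.66, against -1.11 for Cyb5r3 and -1.90 for Cyb5b. The count was 0 without T cell-low 2 (11 genes at an unadjusted p below 0.05) and 12 without T cell-low 1.

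Since Cyp2b9, Cyp2b13 and Cyp2a4 are female-predominant, sex-biased liver genes were compared as well. Of 29 tested female-biased genes outside the members, 13 fell and 1 rose, with a median of -1.03. The 1 that rose was again Sult1e1, which passed the filter only through T cell-low. Of 22 tested male-biased genes, 8 fell and 2 rose, with a median of -1.26. The female-biased P450 genes Cyp2c40 (-2.36, SE 0.31, adjusted p = 0.00331 by limma) and Cyp2c69 (-2.37, SE 0.33, adjusted p = 0.00484) fell. So did Cyp3a41a (-2.42, SE 0.28, adjusted p = 0.00331 by limma) and Cyp3a44 (-4.15, SE 0.63, adjusted p = 0.00805). Of their 3′ end words, 61.3% for Cyp2c40, 39.9% for Cyp2c69 and 100% for Cyp3a41a occurred in other genes. For Cyp3a44 the share was 19.7%, just below the cut of 20%, and its T cell-low values were only 1.4 to 24.4 scaled counts. The male-biased Selenbp2 (-3.31, SE 0.54, adjusted p = 0.00885) and Mup12 (-3.13, SE 0.51, adjusted p = 0.00876), both with shared 3′ ends, the oxysterol hydroxylase Cyp7b1 (-3.17, SE 0.59, adjusted p = 0.0131) and Keg1 (-2.46, SE 0.47, adjusted p = 0.0139) fell as well. In both lists more genes fell than rose. In the same order, the female-biased and male-biased genes named were at -2.14, -2.48, -2.18, -4.42, -3.35, -2.89, -2.92 and -2.66 without T cell-high 1, 3, 5 and 6. The female-biased count of 14 was 7 when T cell-low 2 or T cell-low 4 was left out and 22 in the absence of T cell-low 1, and the male-biased count of 10 ranged from 2 (T cell-low 2 left out) to 18 (T cell-low 1 left out). The calls of Cyp7b1 and Keg1 were lost without T cell-low 2 (adjusted p = 0.051 and 0.0569).

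Of 16 genes of growth hormone signalling and sex-biased regulation, 3 fell, 1 rose and 12 did not pass, with a median of -0.27. The STAT5 target and feedback inhibitor Socs2 rose (2.37, SE 0.56, adjusted p = 0.0236 by limma), with 205, 2508, 1119 and 1601 scaled counts in T cell-low 1 to 4 against 128 to 370. Among those that fell were Igfals, which carries IGF1 in plasma (-1.04, SE 0.27, adjusted p = 0.032), and Stat5a (-2.57, SE 0.70, adjusted p = 0.0365). Dropping T cell-high 1, 3, 5 and 6 gave 2.46 for Socs2, -1.33 for Igfals and -2.18 for Stat5a. Stat5b, the main STAT5 of liver, differed by 0.38 (adjusted p = 0.245). The count was 0 without T cell-low 2, T cell-low 4 or T cell-high 5 (5, 6 and 7 genes at an unadjusted p below 0.05) and 7 without T cell-low 1.

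Of 49 tested hepatic P450 genes outside the cluster, 18 fell and 3 rose, with a median of -0.96. Cyp4f14, a fatty acid hydroxylase, fell (-2.27, SE 0.31, adjusted p = 0.00484 by limma), a call kept without any 1 library. The count of 21 ranged from 7 (T cell-low 2 left out) to 30 (T cell-low 1 left out). Genes of both liver zones were included because P450 genes differ along the lobule. Here 3 of 20 pericentral genes fell and none rose (median -0.56), and 7 of 18 periportal genes fell and 1 rose (median -0.53). Over all genes tested, 7.39% fell and 5.39% rose. Aldh3a2, listed as pericentral, fell (-2.23, SE 0.34, adjusted p = 0.00835), as did the periportal Agxt (-0.87, SE 0.19, adjusted p = 0.0197) and Uroc1 (-0.85, SE 0.19, adjusted p = 0.0208). Without T cell-high 1, 3, 5 and 6 the medians of the zones were -0.04 and 0.04, and Cyp4f14 was at -1.58, Aldh3a2 at -2.04, Agxt at -0.79 and Uroc1 at -0.77. The pericentral count of 3 ranged from 1 (among others without T cell-low 2) to 7 (T cell-low 1 left out), and the periportal count of 8 from 1 (T cell-low 2 or T cell-low 4 left out) to 9 (T cell-low 1 left out).

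**Figure D5:**
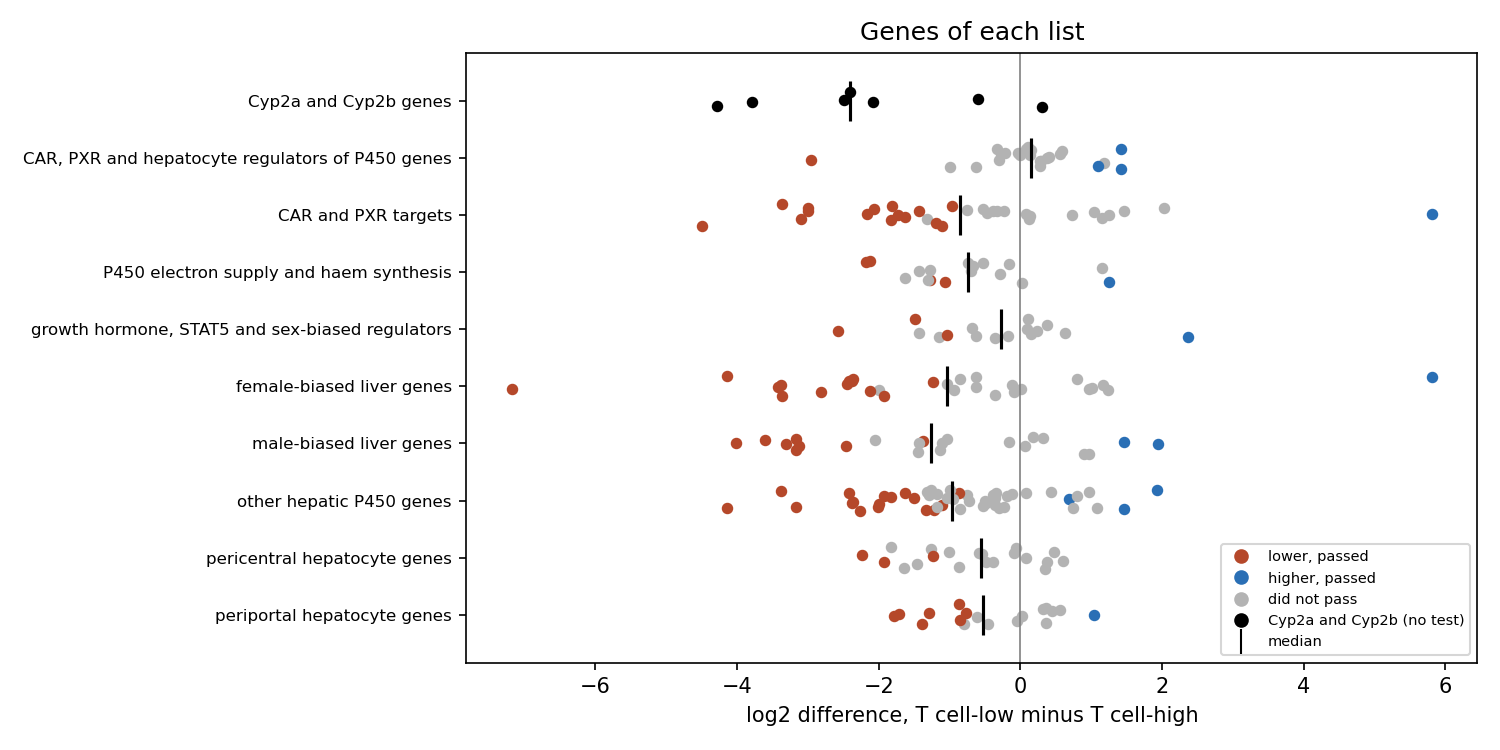
Log2 difference, T cell-low minus T cell-high, of each tested gene (point) by list, with list medians as bars; points are coloured by the limma call at an adjusted p below 0.05, and the 7 Cyp2a and Cyp2b genes are black and untested. The members' median is -2.40, and the medians of the lists plotted run from -1.26 (male-biased) to 0.15 (regulators); the other genes of the cluster, of which Cyp2f2 alone was tested, are not plotted.

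When T cell-high 1, 3, 5 and 6 were left out, none of the 11057 genes then tested was called by limma, and 1027 had an unadjusted p below 0.05, so every list count above was 0 in that comparison of 4 with 2 libraries. Leaving out other single libraries also lost calls of genes named above. Without T cell-low 2 or T cell-low 4, Onecut1, Nfe2l2, Cyb5b, Agxt and Uroc1 did not pass (highest adjusted p 0.0653, 0.0668, 0.0775, 0.0654 and 0.0711), and Uroc1 was lost without T cell-high 1 as well. Sult1e1 was lost without any of T cell-low 2, 3 and 4 and T cell-high 1, 3, 4 and 6 (highest 0.133). Cyb5r3 was lost without T cell-low 2 (0.0569). Socs2 was lost without T cell-low 2, 3 or 4 or T cell-high 5 or 6 (highest 0.0897). Nr0b2 (highest 0.114), Foxa3 (0.154), Cpox (0.133), Hmox1 (0.118) and Stat5a (0.078) were lost without any of T cell-low 2, 3 and 4 and T cell-high 1, 3, 5 and 6, and Igfals (0.113) without T cell-low 2 or 4 or any T cell-high library but T cell-high 2.

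Of the markers of other cell types, every tested neutrophil gene was called with all libraries in, and the other lists held few called genes or none. All 4 tested neutrophil markers of 10 rose. S100a8 rose by 3.85 on the log2 scale (SE 0.46, adjusted p = 0.00331 by limma). Without T cell-high 1, 3, 5 and 6 its difference was 3.62. Ngp and Retnlg, with T cell-high means of 1.45 and 8.23, passed the filter only through T cell-low, so their rise was partly set by the filter. The neutrophil count ranged from 2 (T cell-low 2 or T cell-low 4 left out) to 4. All 10 listed neutrophil genes summed to 649 to 1755 scaled counts in T cell-low against 43 to 219 in T cell-high. Sums below are likewise over every listed gene of the table. Of 6 tested erythroid markers of 7, 2 rose, with sums of 43163 to 98228 and 19681 to 51936. Slc4a1 among them also passed the filter only through T cell-low, with a T cell-high mean of 9.89. Of 9 hepatocyte markers 2 rose and none fell, with sums of 566236 to 781765 and 336466 to 659241. Of 8 Kupffer cell markers none was called, with sums of 5256 to 9064 and 2826 to 11359. Of the tested endothelial markers 2 of 8 rose, of the stellate cell markers 1 of 8, of the cholangiocyte and the T, NK and B cell markers none of 3 each, and of the pancreatic and tumour epithelium markers 1 of 5 rose and 1 fell. No marker of these lists was at 0 in every library, and the part of these cells in the values of the members was not tested.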

How the data were processed

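Mouse liver RNA was sequenced from transcript 3′ ends in 10 libraries with a QuantSeq FWD kit, per the labels' protocols. The submitters' processing notes name STAR, DESeq2 and the build mm10, without versions; which annotation and counter were used is not given in the sources used here. In the deposited table each value is a signal per gene and library, gene counts that the authors scaled to a common depth, called scaled counts here. The values are not whole numbers, whole reads were not recovered, and depth beyond the scaled totals is unknown, so no counting interval is given.

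Groups and library numbers were taken from the sample titles. The 11110 of 24972 genes whose mean reached 10 scaled counts were compared as log2(scaled count + 1) with the moderated test of limma 3.58.1 (R 4.3.3), with a mean trend and group as the only term, two-sided, Benjamini-Hochberg adjusted over all genes tested and called below 0.05. A fold is on the log2(scaled count + 1) scale and understates changes of low genes. A quasi-likelihood count test, first choice for whole counts, was not run because the values are not whole. The fit was tested on simulated data. Differences are given as T cell-low minus the other group.

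The members and gene lists were chosen with earlier results of these data known. Named genes are the 7 members, up to 4 called genes of lowest adjusted p per list (not all are reported here) and the 3 genes of highest r with each member among those with a mean of at least 50; receptors, partners and other genes shown by library were added after their values were seen. Shared 3′ ends (at least 20% of 50-base words of the last 400 bases) were computed on GENCODE vM21, and coding and promoter identity by global alignment in Biopython 1.88. Promoters are from the RefSeq table for GRCm38.p6, in which all 7 members matched; protein sequences were not used here. Figures used Python 3.11.15 and matplotlib 3.10.9.

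Alternatives were other scalings, pseudocounts, filters and trend options, summed copies, the exclusion of genes with shared 3′ ends, a replicate block, each library left out, and the set of T cell-high 1, 3, 5 and 6 left out or used as a covariate.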

Additional observations from a re-analysis of the deposited data

Results flagged for a closer look

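Among 116 groups of libraries (58 genes in both groups), 10 held 1 library far from the others of its group by Dixon's criterion on scaled counts. Chance alone meets it in about 1 in 20 independent groups of normal values, which scaled counts of related genes need not be. Whether these libraries stand out on the log2 scale was not tested, so nothing is read from the count. Among the members this was Cyp2b9 in T cell-low 1, with 619 scaled counts where the other T cell-low libraries had 104 to 190. T cell-low 1 was also the outlying library for Aldh1a1 (3193 against 338 to 799), Mup12 (249 against 28.4 to 34.8), Selenbp2 (55.5 against 3.48 to 11.7), Aldh3a2 (276 against 68.7 to 95.6) and the endothelial gene Stab2 (193 against 340 to 367). In each of these 6 genes its value lay on the side of the T cell-high libraries.

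Other T cell-low libraries stood out for the ammonium transporter Rhbg (85.4 in T cell-low 3 against 44.4 to 48.5) and the neutrophil gene Retnlg (17.3 in T cell-low 2 against 49.8 to 51.1). In T cell-high, the neutrophil gene Ngp had 6.58 in T cell-high 1 against 0 to 2.14, and the elastase gene Cela1 had 439 in T cell-high 4 against 244 to 281.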

How the results depend on the processing

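The members' median log2 difference of -2.40 kept its direction and moved by less than the spread between libraries under the alternatives that kept copies apart. Rescaling moved no member by more than 0.01. With copies summed, 1 of Cyp2a4 and Cyp2a5 and all 3 Cyp2b genes moved by more than that spread. When T cell-high 1, 3, 5 and 6 were left out, only Cyp2a5 (-1.20) and Cyp2a12 (-0.11) of the members moved by more than that spread. The cause was not tested. The limits are few libraries, 1 tumour line per group, and near-identical copies. The number of genes called (1420) was 852 without the trend, and the library left out took it from 109 (T cell-low 2) to 3633 (T cell-low 1); it was 433, 2280, 380, 403 and 446 without T cell-high 1, 2, 3, 5 and 6, and 508 and 156 without T cell-low 3 and 4. With the set of 4 libraries left out or as a covariate, limma called 0 genes (1027 and 1788 at an unadjusted p below 0.05) and 0 in each of the 10 lists.

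Libraries of both groups share numbers 1 to 4. Their deviations correlated by 0.104, 0.211, -0.0988 and -0.151, so they were taken to share only a number. A replicate block over these 8 libraries gave 285 calls, against 21 for the same libraries without it, an alternative chosen after seeing the data. With the block the lists had 2 calls for regulators, 2 for electron supply and haem, 0 for growth hormone (6 at an unadjusted p below 0.05), 4 for male-biased, 10 for other P450, 1 for pericentral and 1 for periportal genes; without it, 3 female-biased and 4 other P450 genes were called and 0 in the other lists.

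Without the trend the counts were 2 for regulators, 2 for electron supply and haem, 2 for growth hormone, 13 for other P450 and 3 for periportal genes, and without a filter 3 for electron supply and haem and 3 for periportal genes. Leaving out 1 library gave 0 to 8 regulators, 5 to 21 CAR and PXR targets, 0 to 12 electron supply and haem genes, 0 to 7 growth hormone genes, 7 to 22 female-biased, 2 to 18 male-biased, 7 to 30 other P450, 1 to 7 pericentral and 1 to 9 periportal genes; the single tested gene of the cluster, Cyp2f2, was called each time. Some uncalled markers turned sign without the set or with it as a covariate: Cd5l (-0.55), Csf1r (-0.60) and Ms4a1 (-0.02, and from -0.01 without T cell-high 1 to 0.79 without T cell-low 2 when 1 library was left out). Summing copies gave -2.45 for Cyp2a4 with Cyp2a5 and -1.07 for the Cyp2b genes.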
